A study of Mus musculus with 8 samples.

Results

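The Ikaros family of transcription factors, *Ikzf1* (Ikaros), *Ikzf2* (Helios), *Ikzf3* (Aiolos), *Ikzf4* (Eos) and *Ikzf5* (Pegasus), was followed in Th17 cells with and without TRIM28. The members were taken by gene symbol, and all 5 were found among the 13704 genes listed in the RNA-seq count tables. All 5 had the 10 reads over both libraries that were required for a test, as did 10881 genes in all. Naive CD4+ T cells (CD25-, CD62L high, CD44 low) of C57BL/6 mice, either wild type (WT) or TRIM28fl/fl x CD4cre (KO), were driven towards Th17 cells for 3 days by TGF-β at 0.5 ng/ml together with IL-6 at 20 ng/ml, followed by a second stimulation with anti-CD3. In the KO mice Cre is driven by the *Cd4* promoter, so that *Trim28* is lost in T cells from the thymus onward and not in Th17 cells alone. There was 1 library per genotype, and the number, age and sex of the mice behind each library are not given in the sources used here. No difference below has a replicate check, and tests and intervals cover counting error in these libraries only.

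Ikaros family proteins are zinc finger factors. In most members a group of N-terminal C2H2 fingers binds DNA around a GGGAA core, and C-terminal fingers pair the proteins with each other. They act largely by bringing chromatin complexes, the NuRD remodeling and deacetylase complex above all, to their target genes. Aiolos is known in Th17 cells as a factor induced through the aryl hydrocarbon receptor (AHR) and STAT3 that silences *Il2*, whereas Helios and Eos are best known from regulatory T (Treg) cells, where Eos works with FOXP3.

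The WT library held 6650066 assigned reads and the KO library 6185108. *Trim28* itself had 4485 WT reads and 180 KO reads. Fold changes are given as log2 of KO over WT after scaling to the total of each library and adding 0.5 to every count, and that of *Trim28* was -4.53. T-cell markers were present in both libraries, with 8 of 8 tested and a summed level of 5006 reads per 1000000 assigned reads (CPM) in WT and 4364 CPM in KO. Of 8 Th17 markers, 7 were tested and 5 were called lower, and their sum was 2415 CPM in WT and 574 CPM in KO. Markers of other cells summed to 15.8 and 12.9 CPM for B cells (10 genes, *Cd22* and *Fcrla* not listed in either library), 13.5 and 21.0 CPM for NK cells (6 genes, *Ncr1* and *Klrb1c* not listed), 7.97 and 4.69 CPM for CD8 T cells (4 genes, *Gzmk* and *Eomes* not listed) and 5.71 and 15.2 CPM for myeloid cells (10 genes, *Lyz2*, *Csf1r* and *Adgre1* not listed). *Clec12a* alone, with 0 and 75 reads, was called higher among the myeloid genes, *Prf1* (22 and 48 reads) among the NK cell genes, and *Cd79b* (15 and 2 reads) was called lower among the B-cell genes. In RNA from a whole culture, fewer cells of a type and less RNA per cell cannot be told apart.

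The family's sequences bear on these data at *Ikzf5*, whose start lies 82 bases from the start of *Acadsb*, the gene of a mitochondrial acyl-CoA dehydrogenase on the opposite strand. The 82 bases between both annotated starts are shown here because *Ikzf5* and *Acadsb* share them as the region before their starts, and *Acadsb*, but not *Ikzf5*, differed between the libraries by the test given further on. The stretch is at chr7:131410519-131410600 of GRCm38.p6 on the minus strand, from RefSeq, read towards *Ikzf5*, and capitals mark GCGTG or its reverse complement CACGC, the core that the AHR dimer recognises.
Ikzf5-Acadsb start region: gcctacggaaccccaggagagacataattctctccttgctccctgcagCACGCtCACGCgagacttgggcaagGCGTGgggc
The stretch was 62.2% G or C and held the AHR core 3 times, once read towards *Ikzf5* and 2 times on the other strand. The Ikaros core GGGAA, the GC box GGGCGG, the CCAAT box CCAAT and the ETS core GGAAG were searched on both strands as well and were not among these letters. At the same distance from the start, 12.5% of 32851 RefSeq promoters held an AHR core, 23.2% the Ikaros core, 18.7% the GC box, 16.5% the CCAAT box and 29.0% the ETS core. A match is a description of letters and not of a bound site. Promoters of *Ikzf2*, *Ikzf3* and *Ikzf4* had no entry, and the 2 entries of *Ikzf1* are not shown and were not searched.

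*Ikzf3* was the most abundant family member in both libraries. It had 2338 reads in WT and 1661 in KO, or 352 and 269 CPM. Per length, it stood at 76.3 reads per kilobase of its longest transcript and 1000000 assigned reads (RPKM; exact Poisson 95% interval 73.3 to 79.5) in WT and at 58.3 (55.5 to 61.2) in KO, above 92.2% and 87.9% of the tested genes. *Ikzf4* followed with 494 and 400 reads, 14.4 RPKM (13.2 to 15.8) in WT and 12.6 RPKM (11.4 to 13.9) in KO. *Ikzf5* had 318 and 251 reads, 10.8 RPKM (9.64 to 12.05) and 9.16 RPKM (8.06 to 10.4). *Ikzf1*, the founding member and a regulator of lymphocyte development, had 175 and 134 reads, 5.10 RPKM (4.37 to 5.91) and 4.20 RPKM (3.52 to 4.97). *Ikzf2* was close to the limit of detection, with 16 and 11 reads, or 0.259 RPKM (0.148 to 0.421) and 0.192 RPKM (0.0957 to 0.343). The order was therefore *Ikzf3*, *Ikzf4*, *Ikzf5*, *Ikzf1*, *Ikzf2* in each library.

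Each step in that order was larger than the counting error. *Ikzf3* was 5.29 times as high as *Ikzf4* in WT (95% interval 4.80 to 5.84) and 4.64 times in KO (4.16 to 5.19). The smallest step was that from *Ikzf4* to *Ikzf5*, 1.34 times in WT (1.16 to 1.54) and 1.37 times in KO (1.17 to 1.61). This step turned round when the median length of the annotated transcripts was used in place of the longest, with *Ikzf5* then 1.22 times as high as *Ikzf4* in WT and 1.19 times in KO. *Ikzf5* was 2.12 times as high as *Ikzf1* in WT and 2.18 times in KO. *Ikzf1* in turn was 19.7 times as high as *Ikzf2* in WT (11.8 to 35.1) and 21.9 times in KO (11.8 to 44.9).

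**Figure D1:**
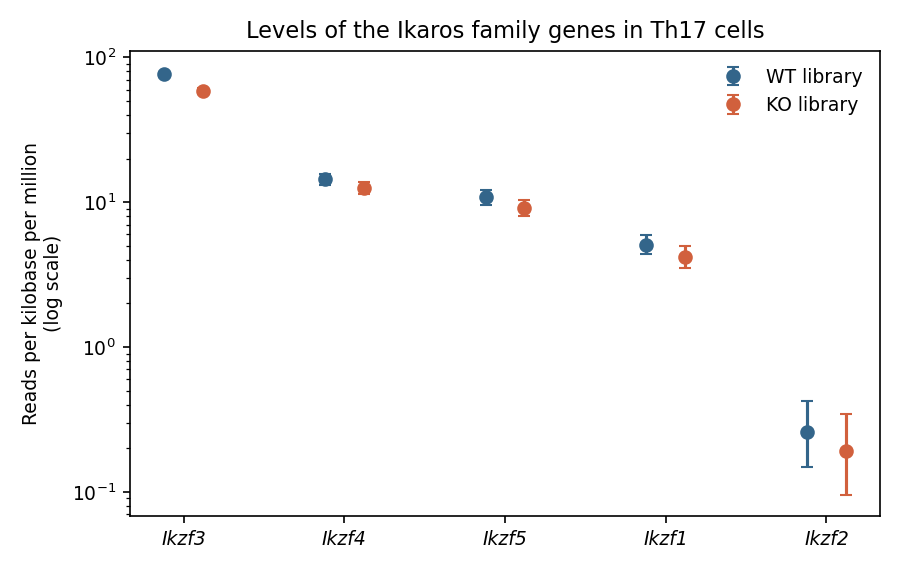
Levels of the 5 Ikaros family genes in reads per kilobase of the longest transcript and 1000000 assigned reads, on a log axis, in the WT and KO libraries (1 library each). Points are the libraries' values and bars exact Poisson 95% intervals; *Ikzf3* is at 76.3 and 58.3, *Ikzf2* at 0.259 and 0.192, and each KO point lies below its WT point.

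Over all tested genes, levels were lower where more transcripts are known, an order that the members themselves did not follow. *Ikzf1* has 6 curated RefSeq transcripts and *Ikzf4* 3, whereas *Ikzf2*, *Ikzf3* and *Ikzf5* have 1 each, so that the highest and the lowest member are alike in this. Across the tested genes the median level in the WT library was 12.9 RPKM for 5562 genes with 1 curated transcript, 6.33 for 2207 genes with 2, 4.62 for 989 genes with 3 and 3.78 for 1071 genes with 4 or more. *Ptprc*, the gene of the leukocyte antigen CD45 that T cells carry in quantity, has 3 curated transcripts. It had 35 reads in WT and 13 in KO, while *Cd28*, with 1 curated transcript, had 8897 and 5191. *Ptprc* was picked by hand outside the naming rule, so this pair is an example and not a test. The median levels above are per length of the longest transcript, and length was not held equal between the classes. How reads that fit several transcripts were handled is not given in the sources used here, and the part of transcript number in the order of the members was not tested. The counts do not tell isoforms apart, including short Ikaros forms that lack DNA-binding fingers.

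No Ikaros family gene was called, since calls required a 2-fold change or more as well as an adjusted p below 0.05. Among all tested genes 5.53% were called lower and 2.57% higher by that rule. All 5 members had a lower level in the KO library than in the WT library, as had 51.4% of all tested genes, and their median log2 fold change was -0.28 against -0.02 over all tested genes.

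*Ikzf3*, with its 2338 and 1661 reads, was 23.6% lower in KO, a log2 fold change of -0.39 with an exact 95% interval from -0.48 to -0.30. Its adjusted p was 5.32e-16 (exact binomial test, two-sided, with Benjamini-Hochberg adjustment over all tested genes), so that it alone of the 5 passed the adjusted test. By the adjusted p alone 22.4% of all tested genes were lower, so 1 of 5 members is close to the background. If cultures of 1 genotype are taken to vary with a coefficient of variation of 0.1, the adjusted p of *Ikzf3* becomes 0.235 (edgeR's exact test), so this difference does not stand apart from even modest variation between cultures. B cells also express *Ikzf3*; the cultures were started from flow-sorted CD4+ cells, a sort that would remove B cells, and the B-cell markers summed to 15.8 and 12.9 CPM. The Th17 markers moved with *Ikzf3* as well, from 2415 to 574 CPM in sum, and the part of either cell type in the result was not tested.

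The other 4 members were lower by amounts that did not pass the test. For *Ikzf4* (494 and 400 reads) the log2 fold change was -0.20 with an interval from -0.39 to -0.01, and its adjusted p of 0.0856 missed the threshold. For *Ikzf5* (318 and 251 reads) it was -0.24, from -0.48 to 0.01. For *Ikzf1* (175 and 134 reads) it was -0.28, from -0.62 to 0.05. *Ikzf2* (16 and 11 reads) had -0.42 with an interval from -1.69 to 0.76, which leaves room for a more than 2-fold fall and for a rise, so that a change of *Ikzf2* was not detectable at this depth. For *Ikzf1*, *Ikzf3*, *Ikzf4* and *Ikzf5* the intervals lay inside a 2-fold change in either direction.

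**Figure D2:**
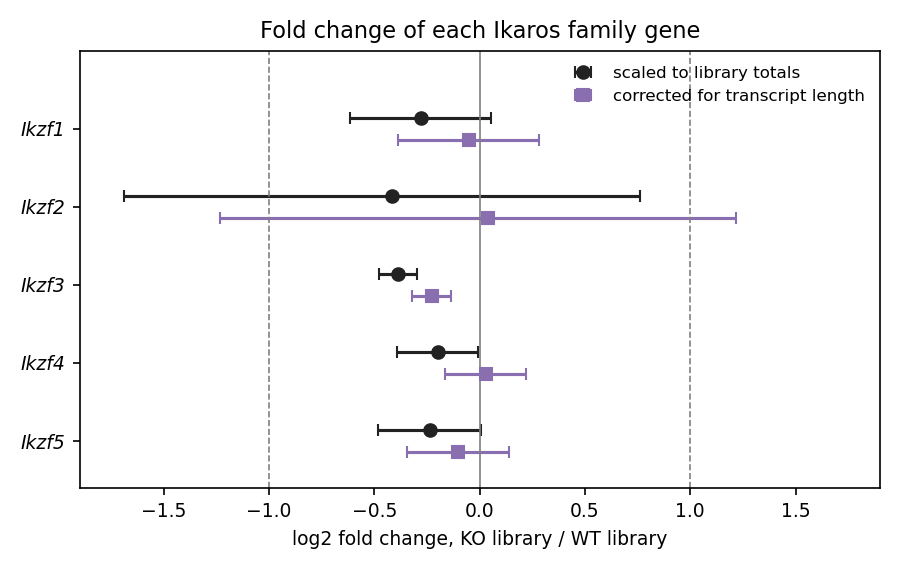
Log2 fold change (KO library over WT library) of each Ikaros family gene, scaled to the library totals (circles) and after correction for transcript length (squares), with exact 95% intervals that cover counting error only. Dashed lines mark 2-fold; after the correction *Ikzf3* at -0.23 is the member whose interval stays below 0, and *Ikzf2* and *Ikzf4* lie at 0.04 and 0.03.

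The members have long transcripts, and fold changes fell with transcript length across all genes (Spearman's rho -0.37 over 10792 genes of the same 2 libraries). The longest annotated transcript was 9278 bases for *Ikzf2*, 5163 for *Ikzf1*, 5150 for *Ikzf4*, 4607 for *Ikzf3* and 4430 for *Ikzf5*, against a median of 3318 bases over the tested genes. Genes from 4395 to 5151 bases, the class of *Ikzf3*, *Ikzf4* and *Ikzf5*, had a median log2 fold change of -0.19, those from 5152 to 6648 bases, the class of *Ikzf1*, one of -0.29, and those from 6653 bases upward, the class of *Ikzf2*, one of -0.44. The fold changes of *Ikzf1*, *Ikzf2* and *Ikzf4* (-0.28, -0.42 and -0.20) were thus close to the medians of their classes, and that of *Ikzf3* (-0.39) was lower than its own. After a loess curve against length had been taken off, the median of the 5 members was -0.05 and 3 of them remained below 0, as did 49.7% of all genes with a length. None of the 5 was called then either, where 4.32% of the genes were called lower and 2.46% higher. *Ikzf3* remained lower, at -0.23 (95% interval -0.32 to -0.14; adjusted p 5.59e-06 by the exact binomial test), where 17.5% of the genes were lower by the adjusted p. *Ikzf5* moved to -0.10 (-0.35 to 0.14) and *Ikzf1* to -0.05 (-0.39 to 0.28). Why fold changes fell with length was not tested.

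**Figure D3:**
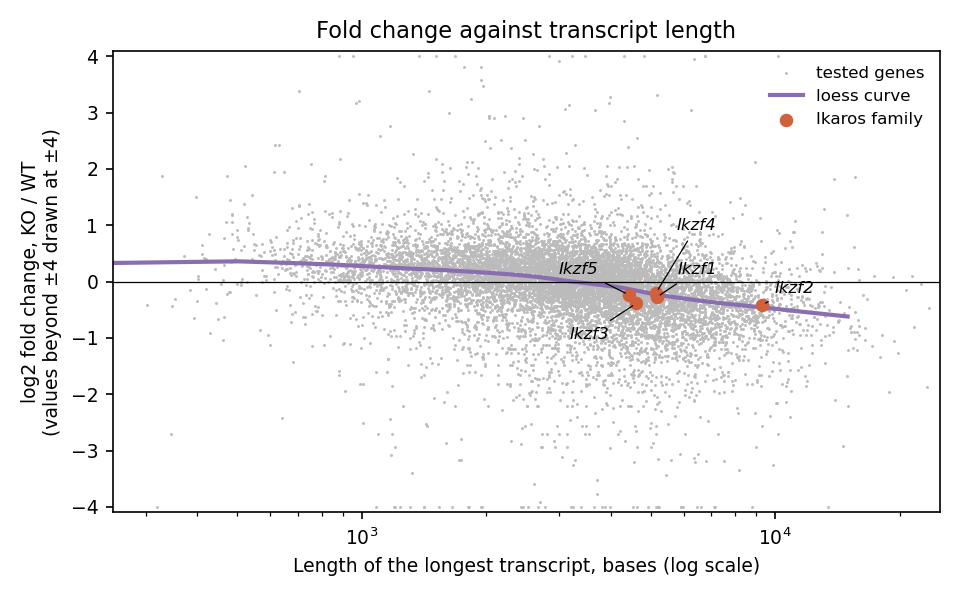
Log2 fold change (KO library over WT library, values beyond 4 drawn at 4) against the length of the longest transcript in bases on a log axis, for tested genes of 250 to 25000 bases (grey), with the loess curve (purple) and the Ikaros family (orange). *Ikzf1*, *Ikzf2* and *Ikzf4* sit on the curve, and *Ikzf3* sits below it by 0.23.

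Set against each other without the length correction, no pair of members differed in fold change beyond counting error. The ratio of 1 member's reads to another's needs no scaling to the library totals, and of 10 such pairs all 10 had a 95% interval of the difference in log2 fold change that included 0. The narrowest intervals were those of *Ikzf3* against *Ikzf4* (-0.19, from -0.40 to 0.03) and *Ikzf3* against *Ikzf5* (-0.15, from -0.41 to 0.11). *Ikzf1* against *Ikzf3* gave 0.11, from -0.24 to 0.45. These intervals exclude differences of 2-fold between those members but not smaller ones, and those with *Ikzf2* exclude little. The pairs were not compared after the length correction, which shifts members by unlike amounts (curve at -0.16 for *Ikzf3* and -0.23 for *Ikzf4*). The count of 10 pairs therefore holds for uncorrected reads only. With it *Ikzf3* stood at -0.23 (-0.32 to -0.14) and *Ikzf4* at 0.03 (-0.17 to 0.22).

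The make-up of the family in uncorrected reads was accordingly close in the libraries. Its 5 genes had 3341 reads in WT and 2457 in KO, 502 and 397 CPM, a log2 ratio of -0.34 (95% interval -0.41 to -0.26). *Ikzf3* gave 70.0% of these reads in WT (exact interval 68.4 to 71.5) and 67.6% in KO (65.7 to 69.5). *Ikzf4* gave 14.8% (13.6 to 16.0) and 16.3% (14.8 to 17.8), *Ikzf5* 9.52% and 10.2%, *Ikzf1* 5.24% and 5.45%, and *Ikzf2* 0.479% and 0.448%. Without *Ikzf3* the other 4 had 1003 and 796 reads, a log2 ratio of -0.23 (-0.36 to -0.09).

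**Figure D4:**
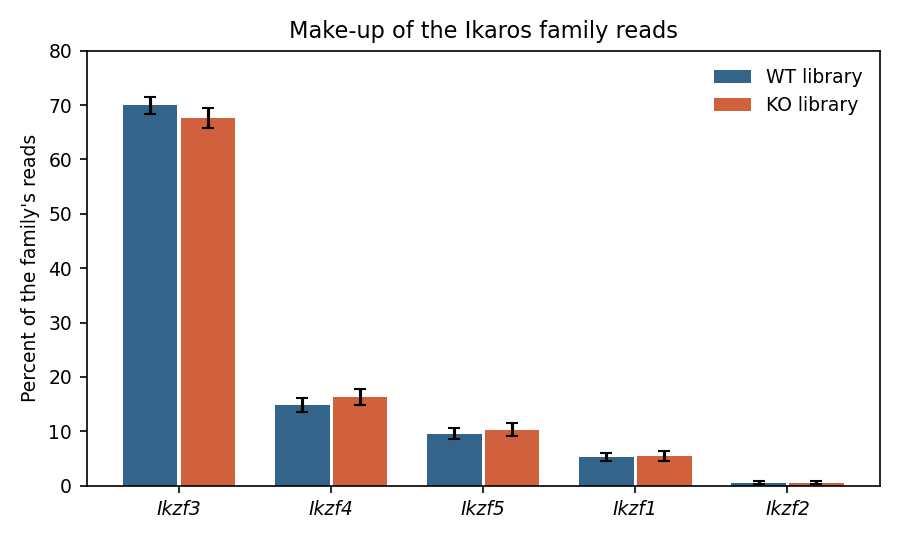
Percent of the Ikaros family's reads that came from each member in the WT library (3341 reads) and the KO library (2457 reads), with exact 95% intervals of the share. *Ikzf3* takes 70.0% and 67.6%, and the intervals of the WT and KO bars overlap for each member.

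The genes next to the members (positions in GRCm38) are given here by their own values. *Ikzf3* (chr11:98464610-98546031, minus strand, 3 to 8 exons per RefSeq transcript) has *Mien1* 6379 bases away on 1 side, with 438 reads in WT and 488 in KO and a log2 fold change of 0.26 (0.07 to 0.45). Without the length correction the fold change of *Ikzf3* was lower than that of *Mien1* by 0.65 on the log2 scale (difference -0.65, interval -0.86 to -0.44). With the correction both were closer, *Ikzf3* at -0.23 and *Mien1* at -0.06, and no interval of that difference was taken. On the other side *Zpbp2*, a sperm protein gene, had 1 read in WT and 0 in KO. *Ikzf4* (chr10:128630839-128669671, minus strand, 7 to 10 exons) lies between the ribosomal protein gene *Rps26*, with 17781 and 16775 reads (0.02, -0.01 to 0.05; -0.27 with the length correction), and *Suox*, the gene of sulfite oxidase, which ends 215 bases before *Ikzf4* starts. *Suox* had 390 WT reads and 600 KO reads, with a log2 fold change of 0.73 (0.54 to 0.91), and differed from *Ikzf4* by -0.93 (*Ikzf4* minus *Suox*, interval -1.20 to -0.66). It stood at 0.62 with the length correction.

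*Ikzf5* (chr7:131388649-131410518, minus strand, 4 to 5 exons) and *Acadsb* leave the 82 bases shown above in opposite directions. *Acadsb* had 213 reads in WT and 104 in KO, a log2 fold change of -0.93 (-1.28 to -0.58; -0.62 with the length correction), short of 2-fold. The difference between both genes was 0.69 on the log2 scale (*Ikzf5* minus *Acadsb*, interval 0.27 to 1.12), so that of a pair with adjoining starts *Acadsb* had the larger fall. At its other end *Ikzf5* shares 81 of its 4578 exon bases with *Pstk* on the opposite strand, which had 82 and 70 reads (-0.12, -0.60 to 0.35). Strand use in the counting is not given in the sources used here, so reads in those bases cannot be told apart. *Ikzf1* (chr11:11684962-11772930, plus strand, 6 to 10 exons) has *Fignl1* as its nearest neighbour downstream, with 10 and 9 reads. *Ikzf2* (chr1:69531207-69687351, minus strand, 8 to 9 exons) stands alone between *Erbb4* and *Spag16*, neither of which was listed in either library. The noncoding genes and the pseudogene that overlap *Ikzf1*, *Ikzf3* and *Ikzf4* in the annotation were not listed either.

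Genes nearest to each member in level over the 2 libraries were found by the distance in log2 CPM, which with 2 values per gene is a description only. They were *Hipk1* (2401 and 1636 reads) and *Nfatc3* (2258 and 1608 reads) for *Ikzf3*, *Csnk1g3* and *Pex6* for *Ikzf4*, *Klhl18* and *Atrn* for *Ikzf5*, and *Kctd3* and *Mppe1* for *Ikzf1*. *Dctd* and *Faim3* had the same 16 and 11 reads as *Ikzf2*.

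The NuRD complex, the main partner of Ikaros and Aiolos, was followed by a list of 14 genes. All 14 were tested and none was called lower or higher, and their median log2 fold change was 0.01 against -0.02 over all tested genes (0.12 with the length correction). Of the 14 genes, 7 had a log2 fold change below 0. *Chd4*, the ATPase that moves nucleosomes, had 9255 and 7370 reads (-0.22, -0.27 to -0.18) and *Chd3*, its paralog, 4399 and 3887 (-0.07). Both turned direction with the length correction, to 0.12 and 0.30. The subunits *Mta1* and *Mta2* had 2885 and 3064 reads (0.19) and 3212 and 2960 reads (-0.01). *Gatad2b*, named after its value was seen because it came nearest to the limit, had 577 and 271 reads (-0.98, -1.20 to -0.77) and moved to -0.60 with the length correction. *Cdk2ap1*, *Hdac1* and *Mbd3*, also named after their values were seen, were higher by the adjusted exact test without reaching 2-fold (0.44, 0.42 and 0.32). With the length correction they stood at 0.21, 0.27 and 0.12.

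Of 11 other chromatin partners, among them subunits of the BAF remodeler, of SIN3 and of the PRC2 methyltransferase, 9 were tested and none was called, with a median of -0.24 that moved to 0.05 with the length correction. *Arid1a*, a BAF subunit, had 4480 and 3236 reads (-0.36) and *Smarcc1*, another, 2481 and 1958 (-0.24), both of which turned to 0.05 with the length correction. *Eed*, of PRC2, had 749 and 613 reads (-0.18) and the scaffold gene *Sin3b* 414 and 272 (-0.50). *Ctbp1* and *Ctbp2*, whose proteins bind Ikaros and Eos, were not listed in either library and are not analysed here.

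Genes that control the stability or phosphorylation of Ikaros proteins, the cereblon ubiquitin ligase, casein kinase 2 and protein phosphatase 1, were tested in 10 of 11 cases and none was called (median 0.09). *Ddb1*, the adaptor of the ligase, had 5334 and 4570 reads (-0.12; 0.02 with the length correction). The phosphatase genes had 3523 and 4610 reads for *Ppp1ca* (0.49, 0.43 to 0.56), 2059 and 2117 for *Ppp1cb* (0.14) and 4725 and 4481 for *Ppp1cc* (0.03; -0.08 with the length correction). *Crbn*, the gene of cereblon, which was named after its value was seen, had only 31 and 17 reads (-0.74, -1.71 to 0.14).

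Among the inducers of *Ikzf3*, *Ahr* fell further than *Ikzf3* itself. Of 6 genes in this list, all tested, *Ahr* and *Ahrr* were called lower, against 5.53% of all tested genes, and none higher. *Ahrr* is a repressor of AHR and not itself an inducer, so *Ahr* is the only inducer called. The median of the list was -0.70, which moved to -0.42 with the length correction. *Ahr*, the ligand-activated receptor, had 816 reads in WT and 185 in KO (-2.03, -2.27 to -1.80), and its repressor *Ahrr* 115 and 53 (-1.01, -1.51 to -0.53). The call of *Ahrr* was lost with the length correction (-0.78), and also with TMM and DESeq2 scaling, with 5 added to each count, with the GC correction and at assumed coefficients of variation of 0.2 and 0.4. *Il6ra* and *Il6st*, the chains of the IL-6 receptor, had 826 and 489 reads (-0.65) and 533 and 391 reads (-0.34), and moved to -0.22 and 0.09 with the length correction. *Stat3* had 93 and 102 reads (0.24, -0.18 to 0.66) and *Arnt*, the partner of AHR, 22 and 12 (-0.74, -1.92 to 0.31). The interval of *Ahr* lay wholly below that of *Ikzf3* (-0.48 to -0.30).

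Among 26 T-cell genes on which family members are known to act, 20 were tested, 3 were called lower and none higher. The median was -0.48 (-0.31 with 5 in place of 0.5 added to each count, -0.38 with the length correction). *Ifng*, *Myc*, *Hes1* and *Rag1* were not listed in either library and are not analysed here. Over all tested genes 5.53% were called lower. *Il17a* (2226 and 381 reads, -2.44), *Il17f* (3143 and 345 reads, -3.08) and *Il10* were those called. Both *Il17a* and *Il17f* are also among the Th17 markers given above. Their fall was known before the lists were chosen, so the 3 calls are no test of this list against the background. Besides these genes, *Il10* alone was called. After the length correction 4 genes of the list were called lower, against 4.32% of all genes, with *Cd8b1* (52 and 27 reads, -1.04) added. *Il10*, an anti-inflammatory cytokine gene, had 26 reads in WT and 0 in KO. With the KO library set to 3 reads *Il10* was 8.06-fold lower. Its exact 95% interval of the log2 fold change, which also covers the WT count, ended at -2.61. *Il2*, which Aiolos silences and which is named here for that reason and not by the rule, had 22 and 16 reads (-0.34, -1.38 to 0.64). A rise of *Il2* was not detectable beside the lower *Ikzf3*, and with so few reads the interval still includes one. *Cd4* had 7904 and 6598 reads (-0.16), *Notch1* 3549 and 2136 (-0.63), the IL-7 receptor gene *Il7r* 1613 and 855 (-0.81) and the cell cycle inhibitor *Cdkn1b* 1033 and 1004 (0.06). *Notch1* moved to -0.16 with the length correction. *Bcl6*, named after its value was seen, had 309 and 414 reads (0.53, 0.31 to 0.74). It was higher by the adjusted exact test without reaching 2-fold. Of the 20 tested genes 15 were below 0 without the length correction.

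The Treg genes, the setting in which Helios and Eos are best known, were tested in 15 of 18 cases. Of these, *Entpd1*, the gene of the ectoenzyme CD39, was called lower with 30 and 4 reads (-2.66, -4.77 to -1.30), none was called higher, and the median was -0.01 (-0.15 with the length correction). This is 1 of 15 genes, against 5.53% over all tested genes. *Nrp1* and *Tnfrsf18*, named after their values were seen, were higher by the adjusted exact test without reaching 2-fold, with 135 and 235 reads (0.90, 0.59 to 1.22) and 505 and 635 reads (0.43, 0.26 to 0.61). *Foxp3*, likewise named after its value was seen, had 1 and 8 reads, too few to be tested. *Il2ra*, the IL-2 receptor alpha chain, had 12320 and 8925 reads (-0.36), *Icos* 1869 and 1494 (-0.22), *Tnfrsf4* 1417 and 1466 (0.15; -0.11 with the length correction) and *Nt5e* 1403 and 915 (-0.51).

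Among 26 other C2H2 zinc finger factors of T cells, 24 were tested and 5 were called lower and none higher, with a median of -0.32 that moved to -0.03 with the length correction. The background was 5.53% of all tested genes called lower, or 4.32% after the length correction, under which 3 of these genes were called. Those called were *Hivep3* (3179 and 814 reads, -1.86), *Bcl11b*, a guardian of T-cell identity (142 and 51 reads, -1.36), *Egr3* (350 and 156 reads, -1.06), *Zeb2* (53 and 17 reads, -1.51) and *Bcl11a*, which had 11 reads in WT and 0 in KO. With the KO library at 3 reads *Bcl11a* was 3.41-fold lower, and the upper end of its exact interval was -1.22 on the log2 scale. After the length correction *Bcl11b* stood at -0.95 and *Egr3* at -0.99, and neither was called. *Klf13* (3091 and 2792 reads, -0.04, or 0.28 with the length correction), *Zbtb7b* (2972 and 2228 reads, -0.31), *Zbtb7a* (1660 and 1449 reads, -0.09, or 0.20 with the length correction) and *Klf6* (1256 and 1372 reads, 0.23) had the most reads of the rest. *Zfpm1*, *Zbtb32*, *Klf3* and *Bcl6*, named after their values were seen, were higher by the adjusted exact test without reaching 2-fold (0.86, 0.66, 0.62 and 0.53). With the length correction they stood at 0.88, 0.48, 0.85 and 0.60. Of the 24 tested genes 17 were below 0 without that correction.

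**Figure D5:**
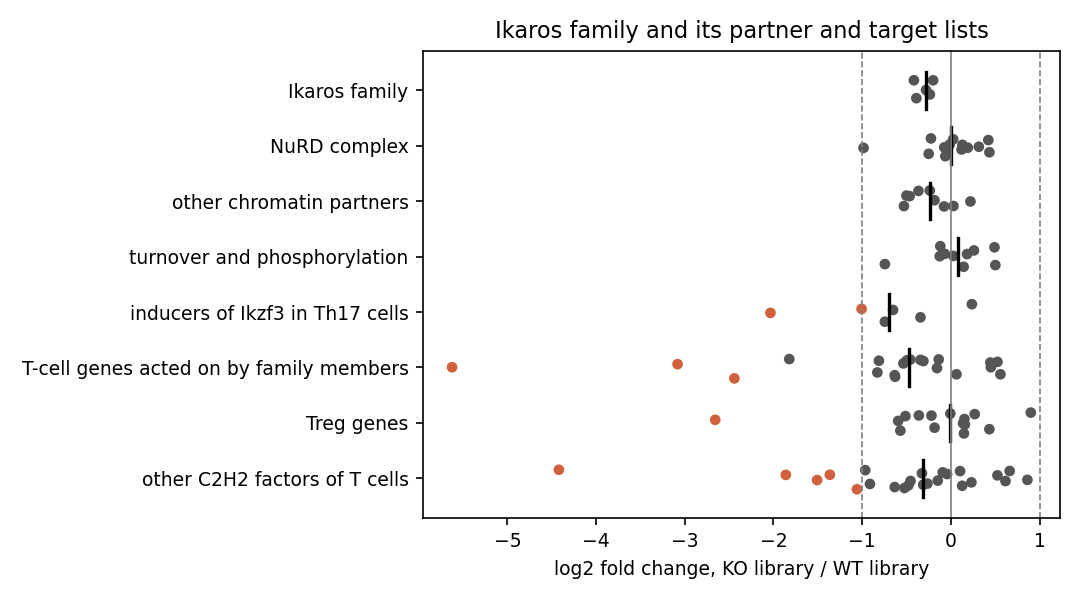
Log2 fold change (KO library over WT library) of the Ikaros family genes and of the tested genes of 7 lists, 1 point per gene, with the median of each list as a black line and genes called lower in orange. Dashed lines mark 2-fold; the 5 members lie between -0.42 and -0.20, and called genes lie in the lists of inducers, T-cell genes, Treg genes and other C2H2 factors.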

How the data were processed

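RNA-seq was analysed for 1 WT and 1 KO library of Th17 cells; ChIP-seq samples are not analysed here. According to the study's methods, mRNA reads were mapped to mm10 with SOAP2 and ChIP-seq reads with Bowtie. The submitters' processing notes name HTSeq and Bowtie without a role. The authors deposited raw, unnormalized counts, the number of reads assigned to each gene uniquely, whose sum equals the total in each heading (6650066 and 6185108). Neither table lists a gene at 0, and a gene missing from a table was given 0; for genes missing from both, it is not known whether they had no reads. Counter, annotation and strand use are not given in the sources used here. At these depths 3 reads are 0.451 CPM (WT) and 0.485 CPM (KO).

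Log2 fold changes used library totals and 0.5 added to each count. Genes reaching 10 reads in the sum of both libraries entered a two-sided exact binomial test with Benjamini-Hochberg adjustment (SciPy 1.17.1), which compares libraries and not genotypes; called means an adjusted p under 0.05 and at least 2-fold. With no replicates, edgeR's quasi-likelihood fit was not possible. Intervals are exact 95% intervals (Clopper-Pearson, Poisson or conditional odds ratio) and cover counting error only, since the reads carry no molecular identifiers. Lengths came from GENCODE M21 (99.2% of tested genes) and positions from RefSeq GRCm38.p6. Of the gene names, 13050 matched a symbol, 602 a unique older symbol and 52 neither. Alternatives used edgeR 4.0.16, DESeq2 1.42.0 and loess curves of statsmodels 0.14.6 (span 0.3). The calculations were tested on simulated data.

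Named were all members, *Trim28*, in each list the genes called and up to 4 others with the most reads, the 2 genes nearest in level to each member, genomic neighbours and markers. Members and lists were chosen with earlier results of these data known.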

Additional observations from a re-analysis of the deposited data

How the results depend on the processing

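With 1 library per genotype neither a biological spread nor a call that depends on 1 replicate could be measured. No paired analysis was possible because each genotype has 1 library. Of 11 settings other than the main one, the length correction turned *Ikzf2* to 0.0404 and *Ikzf4* to 0.0281; no member was called in any of the 11. Without the length correction the values ranged from -0.40 to -0.30 for *Ikzf3*, -0.29 to -0.19 for *Ikzf1*, -0.42 to -0.27 for *Ikzf2*, -0.22 to -0.17 for *Ikzf4* and -0.24 to -0.09 for *Ikzf5*. The adjusted p of *Ikzf3* ran from 1.1e-16 with upper-quartile scaling to 5.59e-06 with the length correction, and was 0.235, 0.947 and 1 by edgeR's exact test at assumed coefficients of variation of 0.1, 0.2 and 0.4.

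Over all genes 602 were called lower and 280 higher, which became 389 and 184 with 10 reads required in each library, 131 and 65 at a coefficient of variation of 0.2, and 9 and 7 at 0.4. The 11 calls lower over the lists became 6 and 0 at 0.2 and 0.4, since larger assumed variation leaves fewer calls; *Nrp1* was the 1 gene called higher with the GC correction (0 otherwise). With the median transcript length 2 members, *Ikzf4* and *Ikzf5*, changed places in each library; with merged exons none did. The causes of other changes were not tested.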
